A study of Homo sapiens with 6 samples.

Results

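The genes of the cytosolic ribosomal proteins were followed in 6 RNA-seq libraries of Huh7, an established human hepatocellular carcinoma line. Members were all rows of the count table named as an RPL or RPS protein, the stalk genes RPLP0, RPLP1 and RPLP2, RPSA, and the copies named with L or L1 added, with pseudogenes left out. This rule found 85 of the 79172 gene names, of which 43 encode proteins of the large subunit, 31 of the small subunit and 3 of the stalk, and 8 are copies. The 3 control libraries came from Huh7 cells labelled as control, and the 3 HK1 libraries from Huh7 cells overexpressing HK1, the gene of hexokinase 1, which phosphorylates glucose. How HK1 was introduced, whether the cells were a pool or a clone, and what the control cells received are not given in the sources used here. Nothing in the labels says that the 3 replicates of a group were separate cultures, so p-values measure only the spread between these libraries.

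The cytosolic ribosome is built from ribosomal RNA and about one copy each of many small proteins, which are imported into the nucleolus and assembled there before the subunits are exported. Their mRNAs are among the most abundant of growing cells and typically begin with a terminal oligopyrimidine (TOP) tract, a C followed by a run of C and T. Through this tract LARP1 and mTOR signalling control how heavily the mRNAs are translated. In liver cells, which secrete large amounts of plasma protein, ribosome supply is a large part of the cost of growth. Most human ribosomal protein genes also have many processed pseudogenes, intronless copies whose sequence is close to that of the parent mRNA.

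The start of the mRNA is shown here because the TOP tract is the feature that unites these genes. The 2 genes that passed the test are among 21 of 68 members without a tract by the count below. A link between tract and call was not tested. RefSeq (GRCh38.p14) promoter entries matched 68 of the 85 members, and 17 had none. A tract was counted where an annotated start was a C followed by at least 4 further C or T. By that count 47 of the 68 members (69.1%) had a tract at an annotated start, of 5 to 19 bases with a median of 8, against 4.98% of the 27237 other genes with an entry. Among the copies named with L or L1 added, 1 of 6 had one. The lines below give 30 bases each, 15 before the annotated start and 15 from it, 5′ to 3′ on the gene's strand, with the tract in capitals.
RPL35 (chr9:124861943-124861972, minus strand): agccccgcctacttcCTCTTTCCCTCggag
RPL24 (chr3:101686704-101686733, minus strand): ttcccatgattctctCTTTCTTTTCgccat
RPL7A (chr9:133348203-133348232, plus strand): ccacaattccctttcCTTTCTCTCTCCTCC
RPL11 (chr1:23691791-23691820, plus strand): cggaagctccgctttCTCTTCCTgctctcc
RPLP0 (chr12:120201097-120201126, minus strand): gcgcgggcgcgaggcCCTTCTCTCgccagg
RPS6 (chr9:19380222-19380251, minus strand): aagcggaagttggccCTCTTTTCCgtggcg
RPS19 (chr19:41860240-41860269, plus strand): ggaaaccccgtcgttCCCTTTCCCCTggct
RPS27A (chr2:55232673-55232702, plus strand): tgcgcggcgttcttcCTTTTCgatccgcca
RPL22L1 (chr3:170870181-170870210, minus strand): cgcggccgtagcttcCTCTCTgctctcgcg
These 9 begin with a tract, RPL22L1 being the copy that has one. The next 5 have none at the annotated start by the same count, and the first 2 of them are the genes that passed the test.
RPS27L (chr15:63157463-63157492, minus strand): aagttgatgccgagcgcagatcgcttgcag
RPL9 (chr4:39458908-39458937, minus strand): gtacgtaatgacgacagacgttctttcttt
RPS4X (chrX:72277234-72277263, minus strand): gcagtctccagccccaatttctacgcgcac
RPL7L1 (chr6:42879601-42879630, plus strand): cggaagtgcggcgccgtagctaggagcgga
RPL26L1 (chr5:172958714-172958743, plus strand): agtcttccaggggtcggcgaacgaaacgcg
RPL9 has a pyrimidine run a few bases inside its annotated start, and a start annotated there would change its count. Median log2 fold changes, HK1 over control, were -0.10 for the 47 tested members with a tract and -0.12 for the 20 tested members without one. In the 250 bases before the start, CCGGAAG on either strand, the core of ETS-family sites, was found in 33.8% of members and 10.2% of other genes, and TATAAA in 10.3% and 13.1%. Neither motif contains the other, and a match describes letters only.

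HK1 itself had 13, 15 and 13 counts in control replicates 1 to 3 and 9723, 10602 and 11101 in the HK1 replicates, as the labels state. Library totals ran from 16771835 to 20823072 counts. Of 8 hepatocyte markers, all were expressed and all 8 had a fitted log2 fold change below 0. In the HK1 libraries 6 were called lower (edgeR, adjusted p of 0.05), against 4.15% of all tested genes. ALB was among them, at 4825 to 5039 CPM in control and 3369 to 3493 CPM in HK1 libraries. Of 8 markers of blood, endothelial and stromal cells, PTPRC, CD3E, VWF and ACTA2 were below 0.5 CPM in every library, COL1A2 rose with HK1 (log2 0.58, adjusted p = 0.001 by edgeR), and COL3A1 (log2 -0.47, adjusted p = 0.218) and PECAM1 (log2 -0.02, adjusted p = 0.964) were not called. CPM here is counts per 1000000, scaled by the library total and its TMM factor.

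Fitted levels of most ribosomal protein mRNAs were slightly lower with HK1, and few single genes passed the test. Of the 82 members with enough counts to be tested, RPS27L and RPL9 fell, and none rose, at an adjusted p of 0.05 (edgeR's quasi-likelihood test with Benjamini-Hochberg adjustment over 16734 genes). Over all tested genes 4.15% fell and 3.87% rose, so the members' share was below the background in both directions. At an unadjusted p of 0.05, 20 members were lower and 0 higher, against 11.2% and 10.7% of all tested genes. DESeq2 and limma-voom each gave the same counts of 2 lower and 0 higher. The fitted value was below 0 for 73 of 82 members, against 48.6% of all tested genes. The median log2 fold change was -0.11, against 0.0063 over all tested genes. The 3 control libraries all lay above the 3 HK1 libraries for 13 members, against 13.9% of all tested genes, and below them for none, against 14%.

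By role, the median log2 fold change was -0.13 for the 43 large-subunit proteins, of which 41 were below 0. It was -0.10 for the 30 tested small-subunit proteins, with 23 below 0. It was -0.09 for the 3 stalk proteins and -0.11 for the 6 tested copies. In bulk libraries scaled to a common total these are shares of the mRNA pool, and less ribosomal protein mRNA per cell, fewer cells that express it and more of other mRNAs cannot be told apart.

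**Figure D1:**
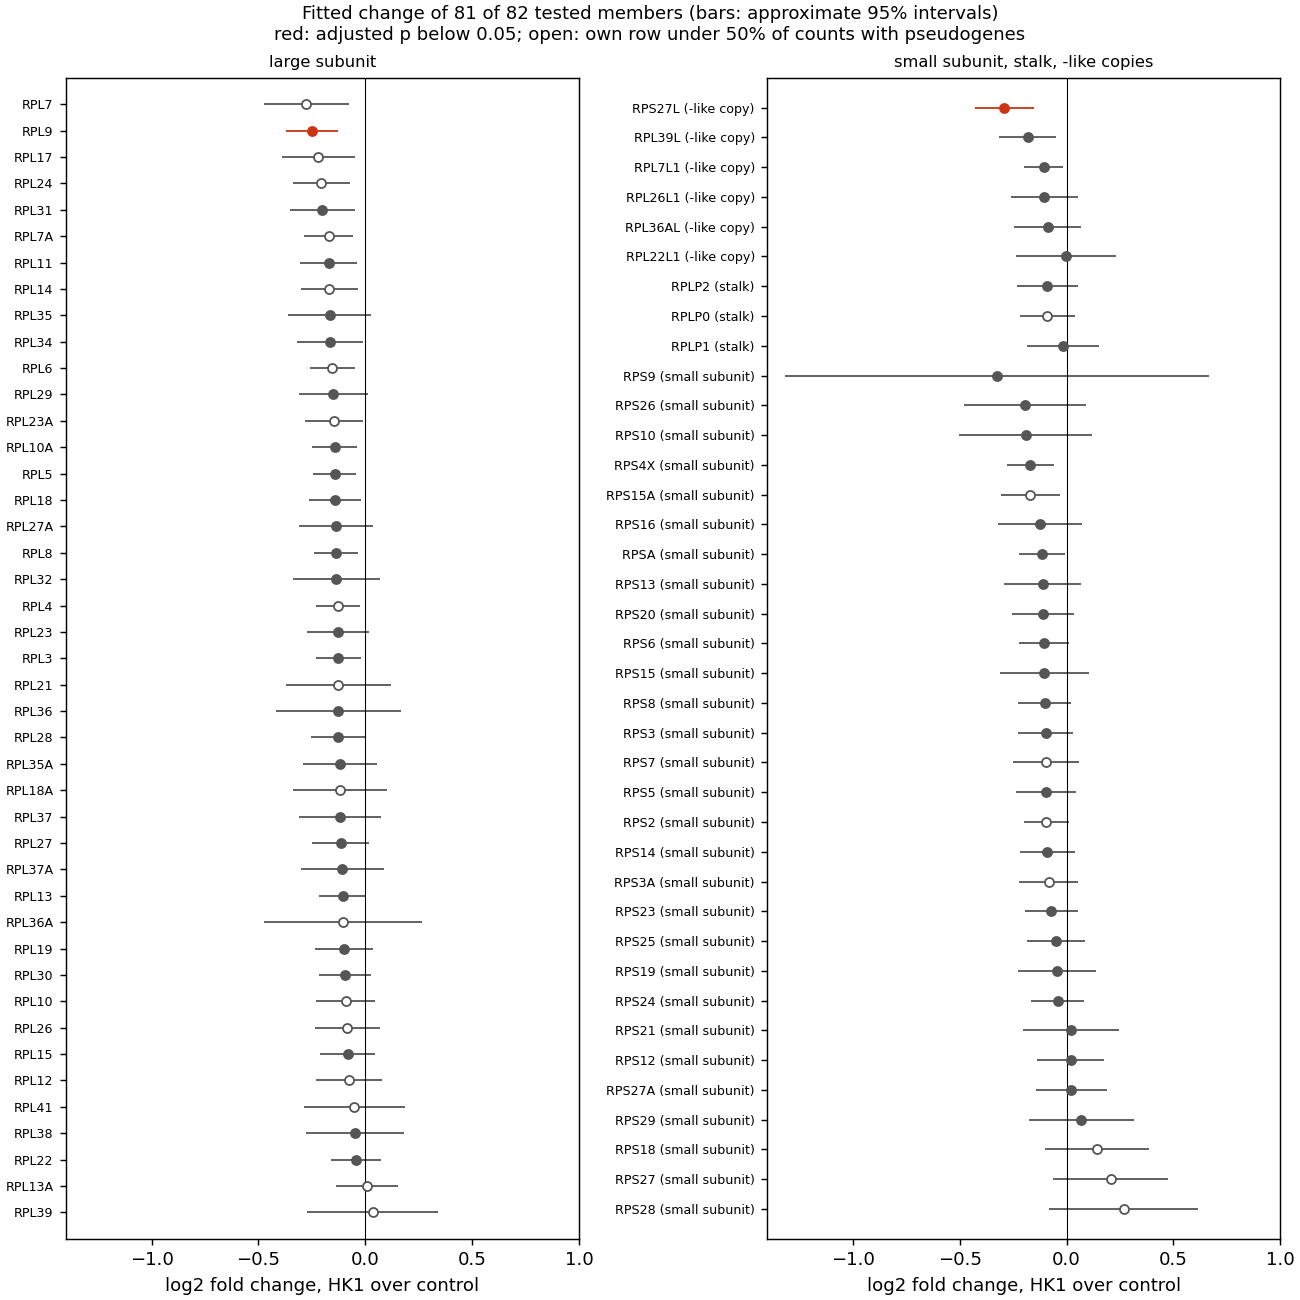
Fitted log2 fold change (HK1 over control, horizontal axis) of 81 of the 82 tested members, the large subunit on the left and the small subunit, stalk and -like copies on the right; bars are approximate 95% intervals, from 3 libraries a group. RPL9 and RPS27L (red) passed an adjusted p of 0.05, most others lie a little left of 0, and open symbols mark genes whose own row held under 50% of the counts of gene and pseudogenes together.

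RPS27L encodes a close copy of the small-subunit protein RPS27. It had 114, 135 and 134 CPM in control replicates 1 to 3 and 112, 101 and 99.3 CPM in HK1 replicates 1 to 3. The groups did not overlap, but control 1 stood just above the highest HK1 library while controls 2 and 3 stood well above it. The log2 fold change was -0.29 (SE 0.070, adjusted p = 0.0205 by edgeR), and across 17 alternatives adjusted p ran from 0.000228 to 0.122. The row spans chr15:63125872-63158021 on the minus strand (hg38, GENCODE 47), and no pseudogene is named for it. Its 30-base start, shown above, has no tract.

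RPL9 encodes a large-subunit protein near the base of the stalk. It had 39.4, 41.3 and 40.5 CPM in the controls and 33.2, 33.7 and 35.0 CPM in the HK1 libraries. Here the 3 controls were close together and all above the 3 HK1 libraries, so RPL9 lacked the spread among controls that most members showed. The log2 fold change was -0.25 (SE 0.062, adjusted p = 0.0239 by edgeR), with adjusted p from 0.00818 to 0.141 across the 17 alternatives. The row spans chr4:39452587-39458931 on the minus strand. RPL9 lost its call in 6 alternatives and RPS27L in 3; the 3 they share each leave out 1 library, which also leaves fewer samples.

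Among the other large-subunit genes, those of smallest p had the same shape of values as each other. RPL24, a protein at the face between the subunits, had 97.2, 118 and 114 CPM in the controls and 98.4, 93.9 and 92.8 CPM in the HK1 libraries (log2 -0.21, SE 0.069, adjusted p = 0.0832 by edgeR). RPL7A, whose gene also hosts small nucleolar RNAs, had 291, 341 and 324 CPM and 288, 286 and 275 CPM (log2 -0.17, SE 0.058, adjusted p = 0.0854 by edgeR). For both, control 1 lay beside the HK1 libraries and controls 2 and 3 lay above. Their own rows held 22.3% (RPL24) and 24.9% (RPL7A) of the counts of gene and named pseudogenes together. With pseudogene rows added, RPL24 had a log2 fold change of -0.16 (SE 0.078, adjusted p = 0.269 by edgeR). RPL7A had one of -0.16 (SE 0.051, adjusted p = 0.0748 by edgeR).

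RPL5 and RPL11 form a particle with the smallest ribosomal RNA, and outside the ribosome that particle binds the ubiquitin ligase MDM2. RPL5 had 425, 482 and 458 CPM in the controls and 418, 405 and 412 CPM in the HK1 libraries. RPL11 had 776, 967 and 920 CPM and 796, 795 and 774 CPM. The HK1 libraries were lower than all controls for RPL5 and overlapped control 1 for RPL11, with log2 fold changes of -0.14 (SE 0.052, adjusted p = 0.109 by edgeR) and -0.17 (SE 0.068, adjusted p = 0.163). Neither passed the test.

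The stalk of the large subunit recruits elongation factors, with RPLP0 as its base and RPLP1 and RPLP2 as its flexible arms. RPLP0 had 475, 584 and 565 CPM in the controls and 513, 506 and 507 CPM in the HK1 libraries. RPLP1 had 419, 550 and 507 CPM and 474, 488 and 495 CPM. RPLP2 had 191, 241 and 223 CPM and 201, 206 and 208 CPM. In the own rows of all 3 genes control 1 was the lowest library, control 2 the highest, and the HK1 libraries lay between them within a narrow band. The own row of RPLP0 held 38.3% of the counts of gene and named pseudogenes together. In its leading pseudogene row, RPLP0P6, all controls (738, 810 and 784 CPM) lay above the HK1 libraries (701, 701 and 722 CPM). With pseudogene rows added, RPLP0 had 1302, 1513 and 1463 CPM in the controls and 1322, 1306 and 1323 CPM in the HK1 libraries. Log2 fold changes were -0.09 (SE 0.066) for RPLP0, -0.02 (SE 0.086) for RPLP1 and -0.09 (SE 0.072) for RPLP2, and none passed the test.

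In the small subunit, RPS4X, the X-linked form of a protein in the body of the subunit, had the smallest p. It had 803, 944 and 896 CPM in the controls and 790, 794 and 765 CPM in the HK1 libraries (log2 -0.17, SE 0.056, adjusted p = 0.0803 by edgeR). All controls were above all HK1 libraries, control 1 by little. RPS6, the substrate of S6 kinase downstream of mTOR, had 1019, 1235 and 1154 CPM in the controls and 1058, 1054 and 1056 CPM in the HK1 libraries. RPS19, the gene most often mutated in Diamond-Blackfan anaemia, had 335, 450 and 404 CPM and 384, 386 and 380 CPM. In both genes control 1 was below the HK1 libraries and control 2 above them, and log2 fold changes were -0.10 (SE 0.060) and -0.05 (SE 0.093), neither past the test.

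RPS27A, which is made as a fusion with ubiquitin, had 38.5, 49.9 and 47.5 CPM in the controls and 47.5, 46.0 and 44.1 CPM in the HK1 libraries. RPSA, also known as a laminin receptor, had 180, 194 and 189 CPM and 166, 186 and 169 CPM. Log2 fold changes were 0.02 (SE 0.085) for RPS27A and -0.11 (SE 0.056) for RPSA, without a call. RPS9 was the most scattered member, with 758, 509 and 226 counts in the controls and 556, 520 and 273 in the HK1 libraries, and its log2 fold change of -0.32 had an SE of 0.51. Part of its exons lie on alternate sequences of the assembly.

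The 8 copies, named after a parent gene with L or L1 added, encode proteins closely related to that of the parent. RPL39L, best known from testis, had 40.9, 42.2 and 43.5 CPM in the controls and 40.1, 35.1 and 36.4 CPM in the HK1 libraries (log2 -0.18, SE 0.068, adjusted p = 0.123 by edgeR). RPL7L1 had 218, 217 and 210 CPM and 205, 196 and 198 CPM (log2 -0.11, SE 0.047, adjusted p = 0.196). For both, as for RPS27L, every control was above every HK1 library. RPL36AL had 113, 142 and 143 CPM in the controls and 128, 123 and 122 CPM in the HK1 libraries. RPL26L1 had 18.9, 21.4 and 20.1 CPM and 19.3, 19.3 and 17.6 CPM. RPL22L1 had 23.68, 33.02 and 29.01 CPM and 31.8, 25.5 and 28.1 CPM. In those 3 the groups overlapped. RPL10L, a retrogene active in testis, had 4 to 9 counts a library, and RPL3L, the form of heart and skeletal muscle, had 0 to 3, so neither was tested.

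Of the parents of these copies, RPL3 had 675, 781 and 730 CPM in the controls and 656, 667 and 679 CPM in the HK1 libraries. RPL7 had 14.6, 15.8 and 18.8 CPM and 14.1, 12.4 and 14.0 CPM. RPL10 had 132, 165 and 152 CPM and 145, 138 and 138 CPM. These 3 had log2 fold changes of -0.13 (SE 0.053), -0.28 (SE 0.10) and -0.09 (SE 0.070), and none passed the test. The own row of RPL7 held 2.76% of the counts of gene and pseudogenes together and that of RPL10 25.8%, and with pseudogene rows added the log2 fold change of RPL7 was -0.11 (SE 0.049). RPL22 had 82.05, 80.47 and 86.48 CPM and 85.2, 80.3 and 76.1 CPM. RPL26 had 18.5, 20.9 and 19.1 CPM and 18.1, 18.1 and 18.8 CPM. RPL36A had 3.02, 2.46 and 3.64 CPM and 3.37, 2.55 and 2.56 CPM. The groups overlapped or touched in each of these, RPL36A being one of the rows with few counts of its own. RPL39 had 3.52, 4.63 and 3.46 CPM and 4.28, 3.99 and 3.60 CPM. RPS27, the parent of RPS27L, had 4.02, 4.52 and 5.04 CPM and 5.39, 4.62 and 5.59 CPM, with a log2 fold change of 0.21 (SE 0.14, adjusted p = 0.419 by edgeR). RPS27L and RPS27 thus had fitted values of opposite sign, but the difference between them was not tested and the row of RPS27 held few of the counts of that gene family.

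The spread of the members lay among the controls. Control 1 was the lowest control for 77 of 82 members, against 35.1% of all tested genes, and control 2 was the highest for 70, against 36.1%. The order control 1, control 3, control 2 held for 69 members, against 21.5% of all tested genes. It was not particular to the members. The order held for 74.3% of 74 tested nuclear-encoded subunits of oxidative phosphorylation and 51.3% of 76 tested mitochondrial ribosomal proteins. Control 1 was the lowest control for 91.9% and 75% of these 2 lists. Control 1 lay below every HK1 library for 47 members, within their range for 21 and above it for 14. Over all tested genes these shares were 35.0%, 31.3% and 33.7%. For the subunits of oxidative phosphorylation, control 1 lay below every HK1 library in 78.4%, against 57.3% of members. Controls 2 and 3 both lay above every HK1 library for 70 members, against 22.0% of all tested genes. The median SD of log2 CPM was 0.16 among controls and 0.040 among HK1 libraries, against 0.13 and 0.077 over all tested genes. Members share their libraries and move together, so these counts describe 6 libraries and not independent genes.

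**Figure D2:**
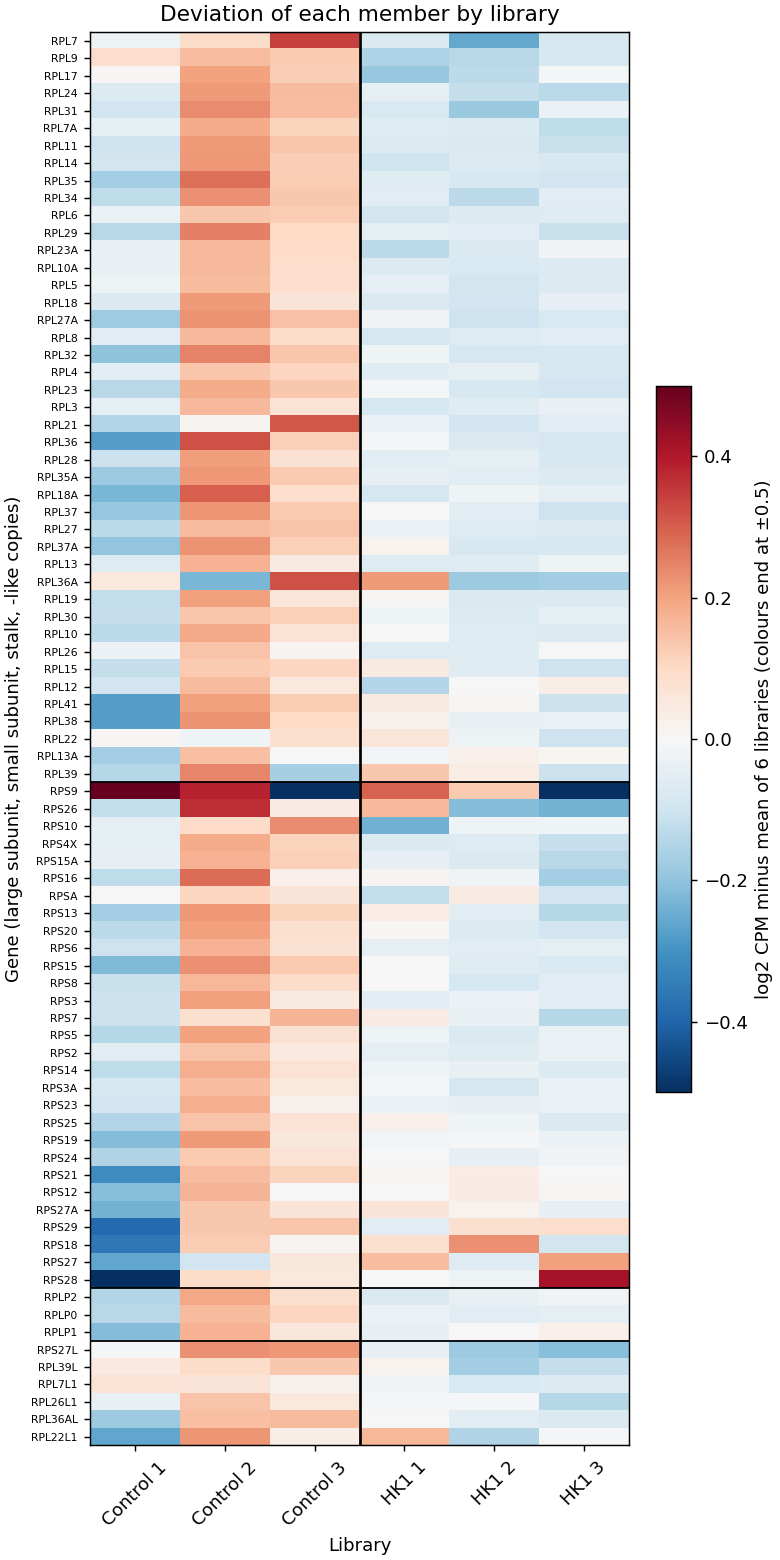
Log2 CPM of each of 81 of the 82 tested members (rows, by role and then by fold change) in each library (columns), minus the gene's mean over the 6 libraries; red is above and blue below that mean, with colours ending at ±0.5. Control 1 is mostly blue and controls 2 and 3 are red in most rows, with RPS9, RPS28 and a few other rows standing apart. The HK1 libraries are pale, with medians over the 82 tested members of -0.028, -0.062 and -0.069 in HK1 replicates 1 to 3. For the 30 tested small-subunit genes the median in HK1 replicate 1 is -0.0019.

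The number of genes called depended on control 1. Without it, 50 of 82 members fell (edgeR, adjusted p of 0.05) and none rose, against 6.32% and 6.82% of all tested genes. None was higher at an unadjusted p of 0.05 either, against 14.3% of all tested genes. These were 34 large-subunit genes, 12 small-subunit genes, 2 stalk genes and 2 copies, with log2 fold changes from -0.36 to -0.15, and they included RPS27L and RPL9. Without control 1, RPL11 had a log2 fold change of -0.25 and RPS6 one of -0.17. Every library was left out in turn, and nothing in the labels sets control 1 apart. Without control 2 the count was 2 members (5.73% of all tested genes fell), and without control 3 it was 0 (2.55%), with 7 lower at an unadjusted p of 0.05, against 9.77% of all tested genes. Without HK1 replicate 1, 2 or 3 it was 1, 0 and 0 (1.48%, 1.46% and 1.77%), and at an unadjusted p of 0.05, 7 members were lower without HK1 replicate 2 (8.04% of all tested genes) and 11 without HK1 replicate 3 (8.32%). The median log2 fold change of the members stayed below 0 in each of these fits, from -0.18 without control 1 to -0.04 without control 2.

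**Figure D3:**
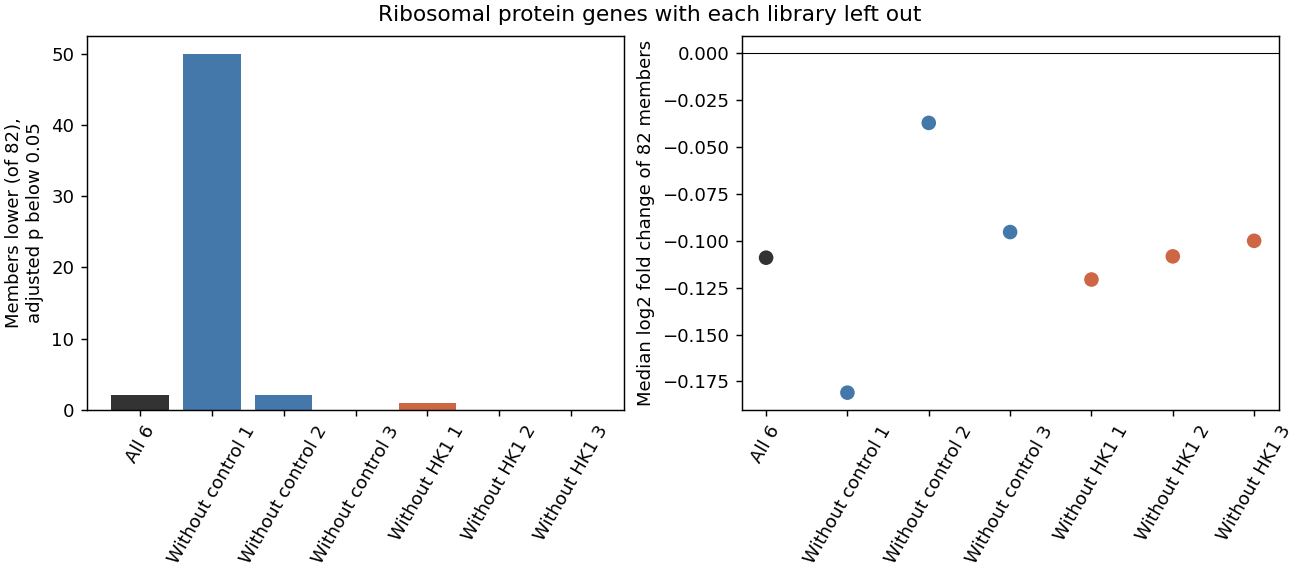
Number of members that fell (left, of 82, adjusted p of 0.05 by edgeR) and median log2 fold change of the 82 members (right, HK1 over control) with all 6 libraries and with each library left out in turn; black is all 6, blue a control left out, orange an HK1 library left out. The count is 50 without control 1 and 0 to 2 otherwise, and the median runs from -0.18 to -0.04.

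The members' share of all counts showed the same order. It was 2.11%, 2.60% and 2.43% in controls 1 to 3 and 2.29%, 2.25% and 2.24% in HK1 replicates 1 to 3. The HK1 mean was 0.12 percentage points below the control mean, 0.26 below it without control 1 and 0.014 below it without control 2, and the groups overlapped. The share of counts on mitochondrially encoded genes was 8.06%, 9.11% and 8.82% in the controls and 8.71%, 8.53% and 8.44% in the HK1 libraries. NEAT1, a nuclear RNA, had 222, 298 and 313 CPM in the controls and 338, 351 and 354 CPM in the HK1 libraries. It was lowest in control 1, like most members, but unlike them it was highest in the HK1 libraries. Totals were 20071846, 17284217 and 16771835 counts in the controls and 19607663, 20499397 and 20823072 in the HK1 libraries, so the controls with the higher shares were also the shallower libraries. Genes outside the members with transcripts of at most 1000 bases (759 tested) deviated from their mean by a median log2 of -0.11, 0.087 and 0.047 in the controls and by 0.0099, -0.0029 and -0.016 in the HK1 libraries. With a gene length trend removed from each library, 10 of 82 members fell, against 7.12% of all tested genes. The members' median log2 fold change was then -0.14, against -0.025 over all tested genes. With no trend removed these medians were -0.11 and 0.0063. The trend was fitted on merged exon length and not on transcript length, and for RPL35 these were 1535 and 455 bases. It therefore does not show what transcript length contributes. The part of depth and of these RNAs in the members' values was not tested.

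**Figure D4:**
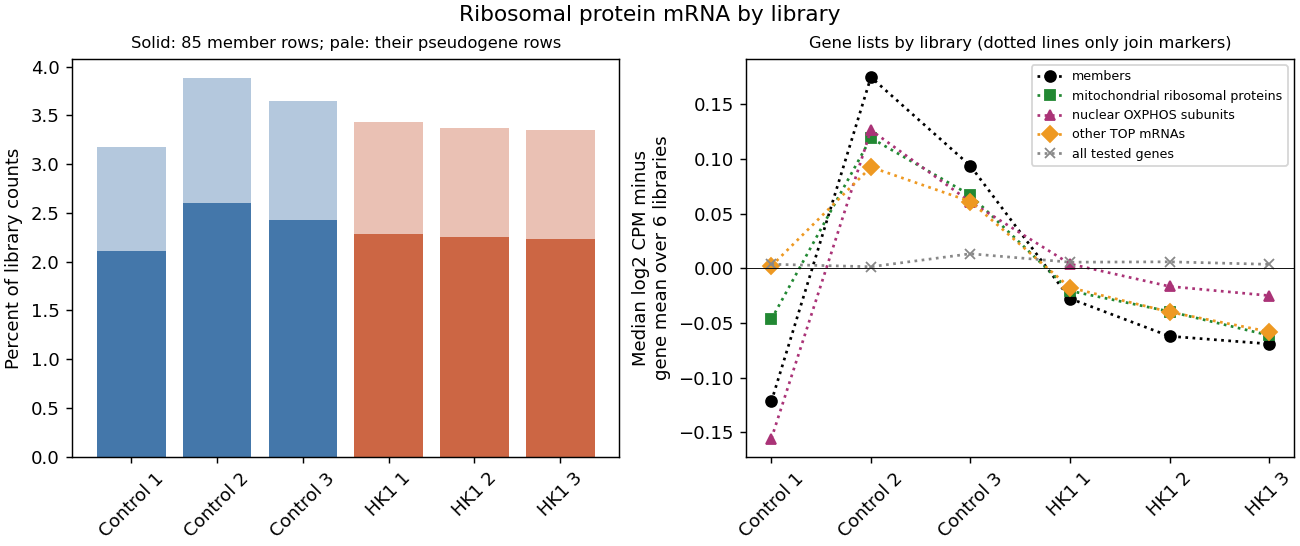
Left, percent of each library's counts in the 85 member rows (solid) and in the rows of their named pseudogenes (pale), for 3 control (blue) and 3 HK1 (orange) libraries. Right, for each list, the median over its tested genes of log2 CPM minus the gene's mean over the 6 libraries; control 1 is low and control 2 high for the members (-0.12 and 0.17) as for nuclear OXPHOS subunits (-0.16 and 0.13), while all tested genes stay near 0.

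Many member rows held only a small part of the counts of their gene family. The authors' table has 1655 rows named as pseudogenes of members, 679 of them with a count, and together they held 49.5 to 50.8 counts per 100 member counts in each library. The gene's own row held under 10% of the sum of gene and pseudogenes for 11 members, 10% to 50% for 15, 50% to 90% for 15 and at least 90% for 44. RPL36A had 336 counts of 21928, with 21483 in RPL36AP37. RPS28 had 639 of 27382, with 26735 in RPS28P7. RPS27 had 561 of 27071, with 23428 in RPS27P3. For 20 of the 26 members under 50%, the leading pseudogene could be aligned with the parent transcript, and its identity was 97.46% to 100%. This is the identity of the aligned stretch, which had 81 to 1284 bases. At 100%, it had 81 of 469 parent bases for RPL41, 156 of 401 for RPL39, 210 of 1326 for RPS28 and 483 of 616 for RPL21. Reads of the parent mRNA and of such a pseudogene cannot be told apart with confidence in these rows. The level and change of those 26 genes are therefore uncertain. Pseudogenes of the 15 members at 50% to 90% were not aligned, so the same limit may hold for them. RPL15, for example, had 83715 counts of 164170, with 80373 in RPL15P3.

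Adding the pseudogene rows to their parents, an alternative chosen after the data were seen, left the counts at 2 lower (RPS27L and RPL9) and 0 higher of 83 tested, against 4.25% and 4% of all tested genes. The median log2 fold change was -0.12, and 78 of 83 were below 0. The 3 members with the most positive fitted values, RPS28, RPS27 and RPS18, each had under 10% of their family's counts in their own row. Their log2 fold changes were 0.27, 0.21 and 0.14 from their own rows and -0.05, -0.08 and -0.09 with pseudogene rows added, and none passed the test either way. RPL23A, a large-subunit protein at the exit of the peptide tunnel, had 186, 233 and 225 CPM in the controls and 184, 180 and 176 CPM in the HK1 libraries on that scale (log2 -0.26, SE 0.073, adjusted p = 0.0503 by edgeR).

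**Figure D5:**
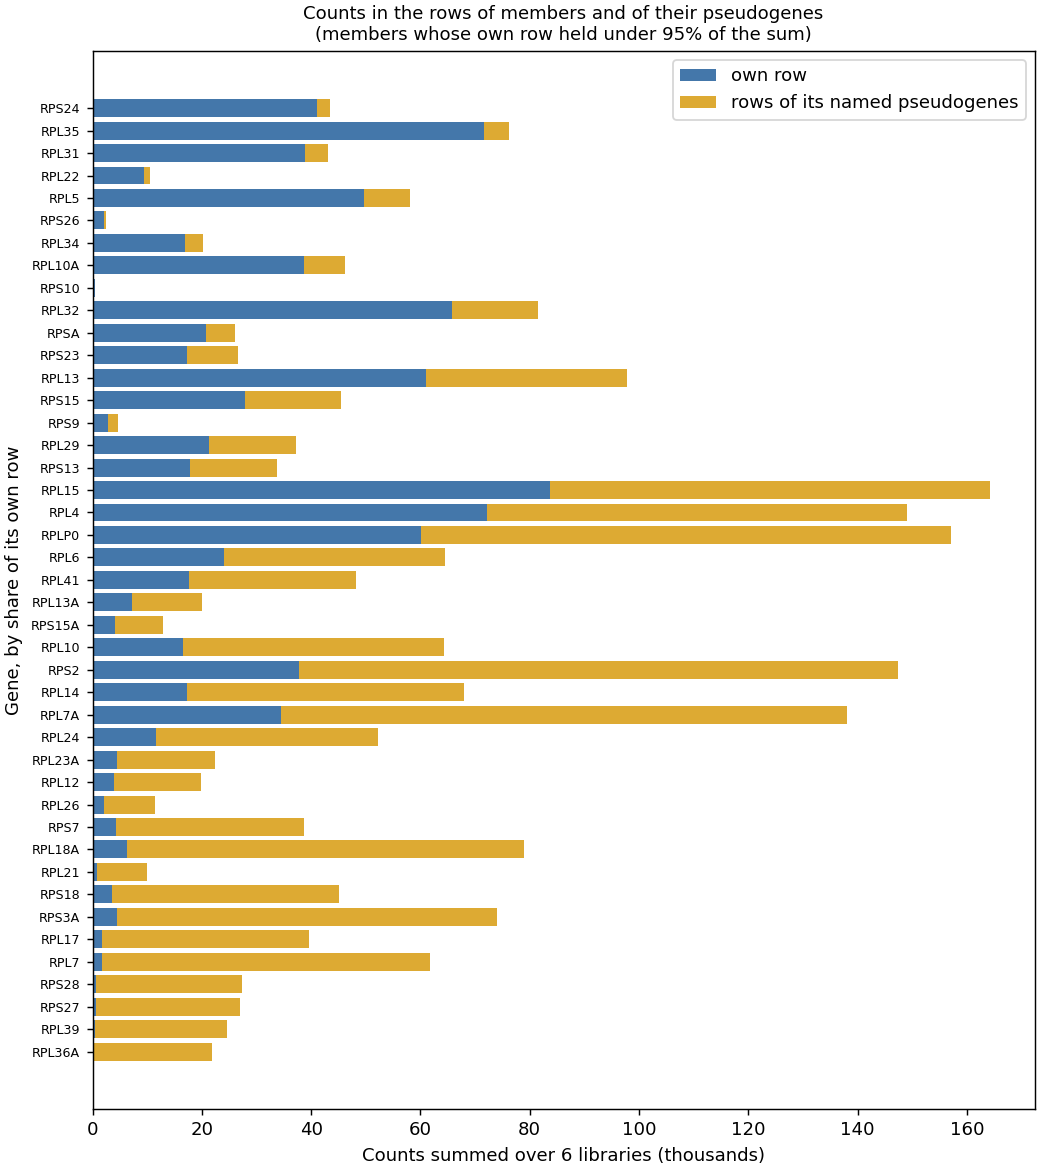
Counts summed over the 6 libraries (in units of 1000) in each member's own row (blue) and in the rows of its named pseudogenes (yellow), for 43 members whose own row held under 95% of the sum, ordered by that share. Own rows of RPL36A, RPL39, RPS27 and RPS28 at the bottom are barely visible beside their pseudogenes.

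Levels of different genes were compared per kilobase of transcript, for the 36 tested members whose own row held at least 90% of the family's counts and whose GENCODE 29 transcript had at most 1600 bases. RPL35, a protein beside the exit of the peptide tunnel, was highest at 1380 CPM per kilobase (1221 to 1661 over the libraries), from 556, 756 and 682 CPM in the controls and 599, 591 and 585 CPM in the HK1 libraries. RPL8, which lies near the centre where peptide bonds form, followed at 1315 CPM per kilobase (1237 to 1467), and the ranges of RPL35 and RPL8 overlapped. RPL8 had 1222, 1415 and 1349 CPM in the controls and 1194, 1212 and 1221 CPM in the HK1 libraries. RPL35A had 443, 585 and 550 CPM and 488, 485 and 480 CPM, or 913 CPM per kilobase (801 to 1057), below the range of RPL8 and RPL35 in every library.

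At the other end, RPL26L1 had 28.6 CPM per kilobase (25.9 to 31.5), RPL9 49.6 (44.3 to 55.1), RPL39L 60.8 (53.7 to 66.6) and RPS29 64.4 (48.7 to 70.3). RPS29, a small-subunit protein of the head, had 14.4, 20.8 and 20.8 CPM in the controls and 18.2, 20.0 and 20.1 CPM in the HK1 libraries. RPL26L1 lay below the other 3 in every library, while the ranges of RPL9, RPL39L and RPS29 overlapped. RPL9 was thus called at a level far below most of its partners in the ribosome, and a count that leaves out fragments matching several places can understate it.

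Of the genes tied to the ribosome outside the name rule, few passed the test. FAU, which fuses a ubiquitin-like domain to a ribosomal protein, and RACK1, a platform on the small subunit, had log2 fold changes of -0.08 (SE 0.060) and -0.15 (SE 0.057), with adjusted p of 0.508 and 0.127 by edgeR. Of 27 tested mRNAs from a list of other TOP mRNAs, 3 fell and 1 rose, against 4.15% and 3.87% of all tested genes, and the median was -0.06. The 3 and 1 became 8 and 1 without control 1 or with a gene length trend removed, 4 and 2 without control 2, and 0 and 0 without control 3 or any 1 HK1 library. They were 2 and 1 with no filter, 1 and 1 with library totals only and 1 and 0 with a replicate block. HNRNPA1, an RNA-binding splicing factor, had 301, 326 and 321 CPM in the controls and 276, 275 and 268 CPM in the HK1 libraries (log2 -0.21, SE 0.048, adjusted p = 0.0159). IPO5, an importin that carries ribosomal proteins, had a log2 fold change of -0.19 (adjusted p = 0.0285), and NACA, which binds nascent chains at the ribosome, -0.18 (adjusted p = 0.0333). VIM, the filament protein vimentin, rose by log2 0.18 (adjusted p = 0.0273). EEF1A1, the factor that brings tRNA to the ribosome, had 2452, 2413 and 2480 CPM in the controls and 2445, 2475 and 2419 CPM in the HK1 libraries, with neither group apart from the other.

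Of 4 genes around the particle of RPL5 and RPL11, RRS1, which helps insert it into the large subunit, fell from 52.0, 49.4 and 49.5 CPM to 40.7, 44.7 and 44.5 CPM (log2 -0.22, SE 0.063, adjusted p = 0.0485), and RPF2 and MDM2 were not called. DESeq2 called none of these 4, with 1 lower at an unadjusted p of 0.05. None of the 4 was called with library totals only, no filter, a mean CPM from 5 up, no robust option or a replicate block. The same held without control 1, control 3 or any 1 HK1 library, so the call of RRS1 depended on the processing. Of 6 chaperones of ribosomal proteins and 8 regulators of TOP mRNAs, LARP1 and MTOR among them, edgeR called none, with 0 higher and 1 lower in each list at an unadjusted p of 0.05, and DESeq2 and limma-voom also called none. Of 76 tested mitochondrial ribosomal proteins, encoded in the nucleus and used in mitochondria, edgeR, DESeq2 and limma-voom called none. At an unadjusted p of 0.05, 11 of these were lower and 0 higher by edgeR, against 11.2% and 10.7% of all tested genes, and the median was -0.09. Of 74 tested nuclear-encoded subunits of oxidative phosphorylation (OXPHOS), these 3 tools called none, with 1 lower and 1 higher at an unadjusted p of 0.05 by edgeR and a median of -0.03. Without control 1, 9 of the 76 mitochondrial ribosomal proteins and 8 of the 74 OXPHOS subunits fell, against 6.32% of all tested genes in that fit. With a gene length trend removed, 7 mitochondrial ribosomal proteins fell, and 2 fell without control 2.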

How the data were processed

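RNA of 6 Huh7 samples was extracted with TRIZOL and libraries made with a stranded mRNA kit, per the labels' protocols. Raw counts for each gene name were deposited; the authors made them with featureCounts 1.5.3 over GENCODE 47 exons, per the file headers. Trim Galore, Subread and hg38 are named in the submitters' processing notes. The recorded command sets no option for strand, for fragments that map to several places or for fragments shared by overlapping genes. Fragments in exons shared with another row, as for RPL10, RPS10 and RPL17, may therefore be missing.

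Counts were scaled by TMM and kept by filterByExpr (16734 genes). HK1 was tested against control in edgeR 4.0.16 (R 4.3.3) by the robust quasi-likelihood test, with Benjamini-Hochberg adjustment at 0.05. Alternatives used DESeq2 1.42.0, limma 3.58.1, other scalings, filters and left-out libraries. Standard errors are approximate, from the quasi-likelihood F. The procedure was also run on simulated data in which genes varied independently of each other. That simulation does not cover genes that move together by library, as the members did. Pseudogenes were matched to members by name. Members may all be named, but a few genes are not reported here. Values in every library were given for called members, the 5 of smallest p, the 4 highest and 4 lowest per kilobase, the copies and parents, and a fixed set of 9. RPS9, RPS18, RPS28, RPL23A and the pseudogene row RPLP0P6 were added after their values were seen. Members and lists were chosen with earlier results of these data known.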

Additional observations from a re-analysis of the deposited data

How the results depend on the processing

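RPS27L and RPL9 were the 2 members called lower with DESeq2, limma-voom, median-of-ratios size factors, TMM without the members, a stricter filter (mean CPM from 5 up) and no robust option. The count lower was 1 with library totals only, against 462 of all 16734 tested genes, and 4 with no filter on low counts, against 685 of 40496. It was 10 with a gene length trend removed, against 7.12% of all tested genes. It was 6 at an adjusted p of 0.1, and 0 to 50 with 1 library left out, against 1.46% to 6.32%. No member was called higher in any of these. All tested genes called were 1342, 2097 at an adjusted p of 0.1, and 536 to 2257 with 1 library left out. The members' median stayed between -0.18 and -0.04. The labels do not say that replicate numbers pair the samples. Correlations were 0.0071, 0.058 and -0.030 for same-numbered libraries and -0.052 to 0.050 for the others, and with so few libraries they cannot decide it. With a replicate block 1 member and 1074 genes were called. Among the members named by the rule, signs turned only for genes not called with all 6 libraries. RPL22L1 was at 0.038 with library totals, 0.013 with no filter and at the stricter filter, 0.0082 with limma-voom, 0.0024 with the replicate block and -0.12 to 0.12 with 1 library left out. RPLP1 was at 0.022 with library totals and -0.12 to 0.076 with 1 library left out. RPL39 was at -0.036 to 0.18 with 1 library left out and -0.057 with pseudogene rows added, and RPS27 at -0.076 with them added. With 1 library left out, RPL36A ran from -0.24 to 0.036, RPS19 from -0.15 to 0.061 and RPS27A from -0.081 to 0.10. The cause was not tested. Depth limits RPS10, RPL36A, RPL39, RPS27 and RPS28, which had under 8 CPM in every library.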
